A study of Mus musculus with 9 samples.

Results

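The claudins and the other transmembrane, scaffold and polarity proteins of the tight junction were followed across 3 epithelial compartments of mouse tail skin. The genes were all those whose symbol begins with Cldn, together with 22 listed junction and polarity genes, each found through the platform annotation. This gave 39 genes of the 14507 measured: 18 claudins, the claudin domain gene Cldnd1, 7 other transmembrane genes, 7 plaque scaffolds and 6 genes of the Par complex. Of the 22 listed genes, Cgn and Amotl1 were not analysed here.

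A tight junction is the belt that seals neighbouring epithelial cells. Claudins form its strands and set which ions pass between cells, some as barriers and others as channels. Occludin and tricellulin join the strands, scaffold proteins such as ZO-1 tie them to actin, and the Par complex places the belt near the apical side. In the epidermis functional tight junctions lie in the granular layer, below the cornified layer, and mice without Cldn1 lose water through the skin and die soon after birth.

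The compartments were the sebaceous gland (SG), the lipid-producing gland of the follicle, the hair follicle itself (HF), and the epidermis between follicles, called interfollicular (IFE). All came from the tails of adult wild-type females on a C57BL6/CBA background, matched for age, with no treatment named, and were separated manually. Each array carried RNA of pooled pieces of 1 compartment, and there were 3 arrays per compartment, labelled as biological replicates. How many animals a pool held, and whether pools shared animals, was not given. The p-values therefore set each difference against the spread between these samples, which may not be the spread between animals. A dissected compartment mixes basal and differentiated cells, so fewer cells of a type and less RNA per cell cannot be told apart.

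The array file names in the descriptions named another compartment than the titles for all 9 arrays, so groups followed the titles, and marker lists were set against them. The mean of 13 sebocyte genes, each centred on its mean over the arrays, was 1.70 to 2.14 on the arrays titled SG, -0.36 to 0.26 on HF and -2.11 to -1.61 on IFE (log2 units). For 13 hair follicle genes it was 1.91 to 2.43 on HF and -2.06 to -1.99 on IFE. SG replicate 3 stood at 0.98 on that list, against -0.91 and -0.73 for the other SG arrays, and it lay between those and the HF arrays. The 13 genes of differentiated IFE were at 0.86 to 1.23 on IFE and at 0.02 or below on the others, HF replicate 2 being the highest of these. Over all genes SG replicate 3 correlated at 0.935 with SG replicate 2, at 0.93 with HF replicate 2 and at 0.921 with SG replicate 1. Of 12 endothelial genes, none passed both an adjusted p under 0.05 in limma and a log2 difference of at least 1 in any comparison, and 4 passed an unadjusted p of 0.05 in at least 1. Flt1 (0.88 in HF and 0.58 in SG against IFE, adjusted p = 0.00641 and 0.0336) and Emcn (0.72 in SG against IFE, adjusted p = 0.0424) passed the adjusted p alone. Their list values were -0.29 to -0.02 on IFE, -0.04 to 0.16 on HF and 0.01 to 0.16 on SG. Further lists held 8 melanocyte, 6 Schwann cell, 9 fibroblast, 7 smooth muscle, 9 Langerhans and immune, and 5 adipocyte genes. In each of these short lists, no more than 2 genes passed both thresholds in 1 direction of any comparison. Of the Schwann cell genes, 2 were higher in HF than in IFE and 1 lower, against 2.96% and 3.36% of all genes. Of the Langerhans and immune genes, 2 were lower in HF than in IFE (background 3.36%) and none higher. In SG against HF, 2 of them were higher (background 1.81%) and none lower. Of 9 Langerhans and immune genes, 6 were higher in SG than in HF at an unadjusted p under 0.05 and 1, Epcam, was lower (-0.81). Their list values were 0.20 to 0.40 on SG and -0.37 to -0.17 on HF. Of 8 melanocyte genes, 4 were higher in SG than in IFE at that p. Against HF 4 were higher in SG and 1 was lower. The share of all genes passing an unadjusted p of 0.05 is not given here, so counts at that p have no background beside them.

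Printed next are the 250 bases upstream of the listed transcription starts of genes on which the results turn: Cldn17 and Cldn10, higher in HF than in IFE, Cgnl1, lowest in IFE, and Tjp1 and Ocln, lowest in SG. They come from RefSeq on GRCm38.p6, run 5′ to 3′ on the gene's strand, and capitals mark any match to 5 motifs on either strand. The motifs were the grainyhead-like site AACNGGTT, the Snail and Zeb E-box CAGGTG, the AP-1 site TGANTCA, the TATA box TATAAA and the GC box GGGCGG; no matches in the printed windows overlap.
Cldn17 (chr16:88506979-88507228, minus strand): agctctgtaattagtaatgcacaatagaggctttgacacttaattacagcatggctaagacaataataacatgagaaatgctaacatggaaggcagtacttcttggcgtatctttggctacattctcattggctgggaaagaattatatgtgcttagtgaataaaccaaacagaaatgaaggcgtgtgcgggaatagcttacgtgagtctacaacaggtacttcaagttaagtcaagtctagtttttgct
Cldn10, first listed start (chr14:118787621-118787870, plus strand): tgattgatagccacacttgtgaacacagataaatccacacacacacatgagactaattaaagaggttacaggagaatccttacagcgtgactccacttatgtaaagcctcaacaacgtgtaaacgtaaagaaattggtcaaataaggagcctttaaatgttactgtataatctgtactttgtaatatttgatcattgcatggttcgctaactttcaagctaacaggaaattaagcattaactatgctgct
Cldn10, second listed start (chr14:118854700-118854949, plus strand): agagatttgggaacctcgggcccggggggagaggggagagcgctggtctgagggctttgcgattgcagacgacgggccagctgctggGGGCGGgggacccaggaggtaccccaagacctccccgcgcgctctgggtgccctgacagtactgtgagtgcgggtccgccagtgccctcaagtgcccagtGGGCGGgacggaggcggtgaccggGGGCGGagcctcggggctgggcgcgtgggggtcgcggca
Cgnl1 (chr9:71771603-71771852, minus strand): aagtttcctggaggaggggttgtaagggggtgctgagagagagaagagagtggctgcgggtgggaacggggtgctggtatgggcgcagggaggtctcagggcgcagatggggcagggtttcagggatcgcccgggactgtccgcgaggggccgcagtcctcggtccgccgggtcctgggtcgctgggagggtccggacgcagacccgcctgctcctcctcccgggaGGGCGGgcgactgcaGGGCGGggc
Tjp1 (chr7:65371245-65371494, minus strand): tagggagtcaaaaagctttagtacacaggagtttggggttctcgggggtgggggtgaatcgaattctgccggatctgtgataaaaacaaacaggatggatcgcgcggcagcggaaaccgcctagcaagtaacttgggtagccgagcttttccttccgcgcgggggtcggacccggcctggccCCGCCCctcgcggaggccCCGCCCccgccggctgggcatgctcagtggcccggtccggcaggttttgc
Ocln, downstream listed start (chr13:100552499-100552748, minus strand): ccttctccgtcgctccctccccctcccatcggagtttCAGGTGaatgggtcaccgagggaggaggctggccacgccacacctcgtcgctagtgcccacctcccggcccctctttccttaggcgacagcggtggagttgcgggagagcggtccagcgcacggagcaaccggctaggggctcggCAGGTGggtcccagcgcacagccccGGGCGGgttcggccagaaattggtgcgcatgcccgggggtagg
Among all 32851 windows of this length, 1.79% held the grainyhead-like letters, 17.2% the E-box, 6.75% the AP-1 site, 12.4% the TATA box and 32.7% the GC box. The window of Cldn17 and that of the first start of Cldn10 held none of the 5 motifs and had 38.4% and 36% G and C. The second start of Cldn10 lay in a window of 72.4% G and C with 3 GC boxes. Cgnl1 and Tjp1 each had 2 GC boxes, and the printed Ocln window had 1 with 2 copies of the E-box. The window of the other Ocln start had 1 GC box and no E-box. A match is a run of letters and was not tested as a binding site. Of the 12 genes that changed in a comparison, 9 were in the promoter table.

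Across the 3 compartments, 19 of the 39 genes (48.7%) passed an F test in limma, with p-values adjusted by Benjamini-Hochberg over all genes and a threshold of 0.05. Of all genes, 24.5% passed. A gene was called changed in a comparison when its adjusted p was under 0.05 and its log2 difference was at least 1, which is 2-fold. By that rule 12 genes (30.8%, against 13.9% of all genes) changed in at least 1 comparison and 27 in none. Claudins that were higher in HF than in IFE (Cldn17, Cldn8 and Cldn10), a claudin highest in IFE (Cldn23), and genes of the junction belt that were lowest in SG (Tjp1 and Ocln) were the main patterns in the heat map of all 39 genes.

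**Figure D1:**
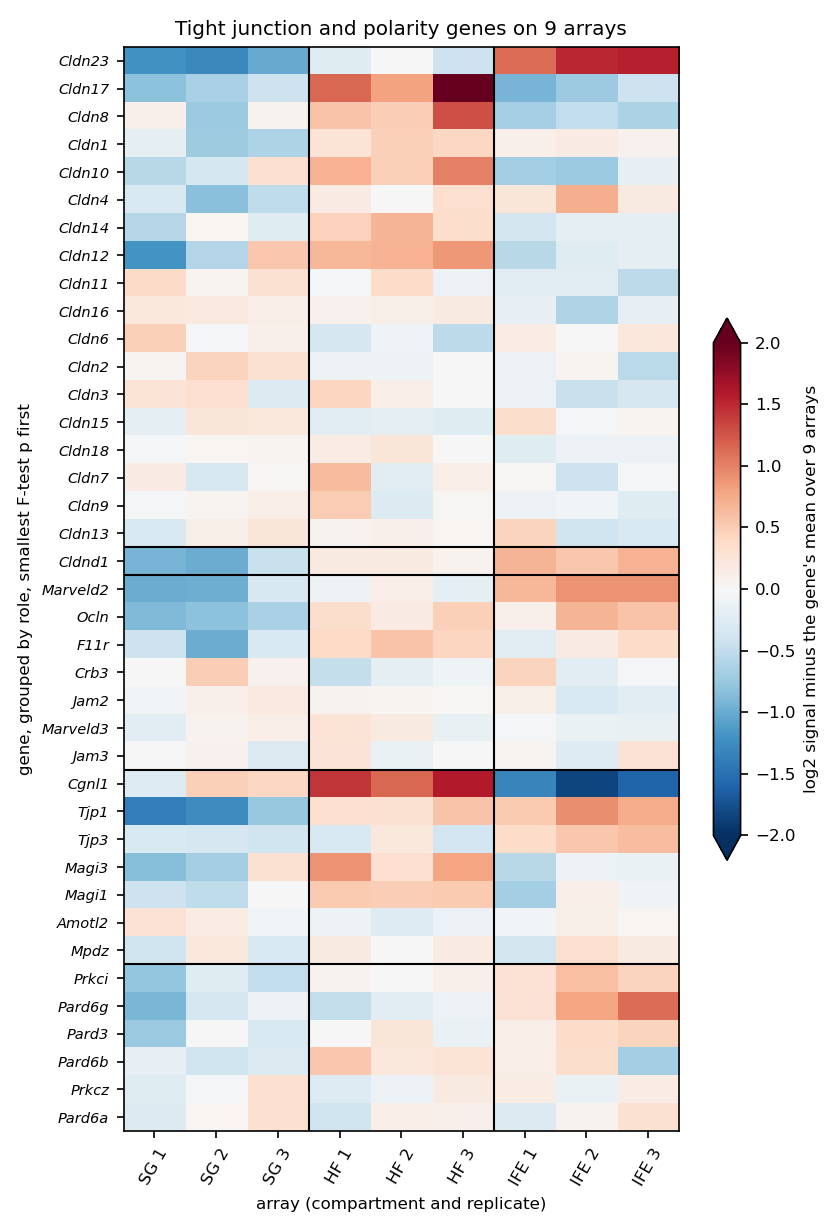
Log2 signal of the 39 genes (rows, grouped by role) on the 9 arrays (columns), each minus the gene's mean over the arrays; the colour scale ends at 2 log2 units in each direction. Cldn23 is red in IFE and blue in SG, Cldn17 is red in HF, Cgnl1 is red in HF and blue in IFE, and Tjp1 is blue in SG.

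In the SG against the IFE, 7 of the 39 genes changed (17.9%, against 9.49% of all genes), 6 lower (background 6.96%) and 1 higher (background 2.54%). All genes together leaned the same way, with 26.7% of calls higher; with quantile normalization that share was 56.4%, with median centring 53.1%. Ocln (-0.98 and -0.99) and Pard6g (-0.93 and -0.94) then slipped under the fold threshold with adjusted p-values still under 0.05. Both scalings moved the median of all genes, from -0.06 to 0.16 and 0.18. The median difference was -0.04 over the 39 genes, near that of all genes. Without the dimmer 50% of genes, it was -0.67 over the 19 of the 39 that remained, against -0.27 over all genes kept. Lower were Cldn23, Tjp1, Marveld2, Cldnd1, Ocln and Pard6g, and higher was Cgnl1. With no minimum fold, 12 of the 39 were lower (30.8%, against 15.8% of all genes) and 2 higher (5.13%, against 6.07%).

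In the HF against the IFE, 5 genes changed (12.8%, against 6.31% of all genes), 4 higher (background 2.96%) and 1 lower (background 3.36%). Of the calls among all genes 46.8% were higher, and 58.3% with quantile normalization. Higher were the claudins Cldn17, Cldn8 and Cldn10 and the scaffold Cgnl1, and lower was Cldn23. The median difference was 0.16 over the 39 genes and 0.30 over the 18 claudins, against -0.07 over all genes. Without the dimmer 50% of genes, it was -0.21 over the 19 of the 39 that remained, against -0.19 over all genes kept. Without SG replicate 3 and HF replicate 2, the same 5 were called and Cldn12, Magi3 and Pard6g were added, and 7.37% of all genes were called.

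In the SG against the HF, 6 genes changed (15.4%, against 5.11% of all genes), and all 6 were lower (background 3.3% lower and 1.81% higher): Cldn17, Tjp1, Cgnl1, Ocln, Magi3 and F11r. None was called higher by limma, and 1 was higher at an unadjusted p under 0.05. The median difference was -0.28, against -0.02 over all genes. Of the calls among all genes 35.4% were higher, and 50.4% with quantile normalization, under which F11r (-0.89, adjusted p = 0.0119) and Magi3 (-0.98, adjusted p = 0.0301) slipped under the fold threshold. Without SG replicate 3, the array with the high hair follicle list value, 11 genes were lower, while the share of all genes called lower was 4.78%: the same 6 and Cldn8, Cldn10, Cldn12, Cldn23 and Cldnd1. The 3 comparisons share arrays and are not independent of each other.

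**Figure D2:**
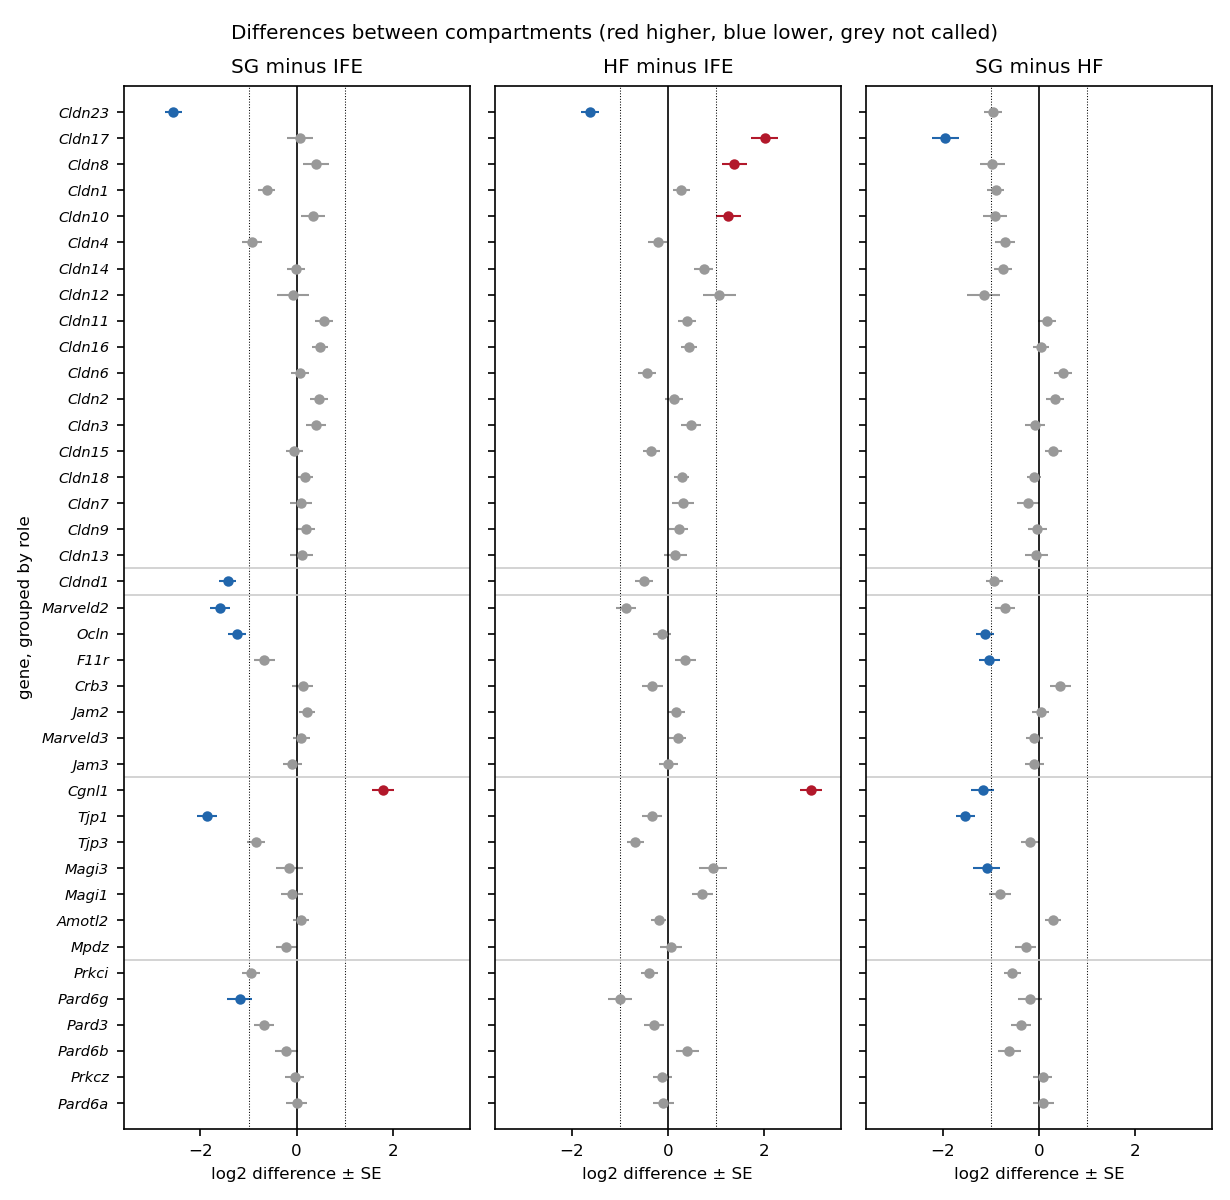
Log2 difference ± SE of each of the 39 genes (rows, grouped by role) in the 3 comparisons (panels); red and blue points passed the threshold, grey ones did not, and dotted lines mark a log2 difference of 1. The called differences range from -2.56 for Cldn23 in SG against IFE to 2.97 for Cgnl1 in HF against IFE.

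Among the claudins, Cldn23 differed most by the F test (adjusted p = 1.43e-05). Its log2 signal was 9.07, 9.47 and 9.51 on the IFE arrays, 7.71, 7.95 and 7.55 on HF and 6.74, 6.66 and 6.95 on SG. The 3 compartments did not overlap, and the order was IFE, HF, SG. Against the IFE SG was 5.91-fold lower (a log2 difference of -2.56 with an SE of 0.19, n = 3 arrays a group, limma adjusted p = 6.62e-06) and HF 3.06-fold lower (-1.61 ± 0.19, adjusted p = 0.000178). Between SG and HF the difference of -0.95 had an adjusted p of 0.0074 but stayed under the fold threshold. Cldn23 was the 1 gene of the 39 called higher in IFE than in both other compartments, as 2.32% of all genes were.

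Cldn17, a claudin that forms anion-selective channels, was high in HF. The HF arrays stood at 7.05, 6.70 and 7.89, the SG arrays at 5.07, 5.24 and 5.47 and the IFE arrays at 4.96, 5.16 and 5.47. It was 4.04-fold higher in HF than in IFE (2.01 ± 0.27, adjusted p = 0.000529) and 3.86-fold higher than in SG (adjusted p = 0.0013). SG and IFE overlapped, with a difference of 0.07 and a 95% confidence interval of -0.53 to 0.66. Cldn17 and the scaffold Cgnl1, described with the scaffolds, were the 2 genes called higher in HF than in both other compartments, as 1.3% of all genes were.

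Cldn8, a barrier claudin known from the kidney, is the next protein-coding gene to Cldn17 in RefSeq and was also higher in HF than in IFE. Its signal was 7.85, 7.77 and 8.56 on HF, 6.61, 6.78 and 6.65 on IFE and 7.37, 6.54 and 7.35 on SG. It was 2.60-fold higher in HF than in IFE (1.38 ± 0.26, adjusted p = 0.00475). Between SG and HF, -0.97 with an adjusted p of 0.0364, it stayed just under the fold threshold.

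Cldn10, a channel-forming claudin made from alternative first exons, was 2.40-fold higher in HF than in IFE (1.26 ± 0.25, adjusted p = 0.00665). It stood at 7.96, 7.74 and 8.26 on HF, 6.56, 6.51 and 7.10 on IFE and 6.71, 6.92 and 7.59 on SG. The highest SG value was that of SG replicate 3, and SG and IFE overlapped. Of its 6 probe sets, 4 were higher in HF by 1.84 to 2.15, and the remaining 2 differed by 0.03 and 0.16. The files do not place probe sets on exons, so which transcript start the 4 read is not known here.

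The 14 claudins that changed in no comparison had differences from -1.15 to 1.07, both ends being Cldn12. Of these 14, 4 passed the F test: Cldn1, Cldn4, Cldn12 and Cldn14. Cldn1, the claudin the epidermal barrier depends on, stood at 10.83, 10.31 and 10.41 on SG, 11.30, 11.51 and 11.45 on HF and 11.13, 11.18 and 11.11 on IFE. SG lay below the other compartments without overlap, by 0.90 on the log2 scale against HF (adjusted p = 0.00747) and by 0.62 against IFE (adjusted p = 0.0252). HF and IFE differed by 0.28 with an interval of -0.11 to 0.66. Cldn4, a barrier claudin, was at 9.68, 9.15 and 9.47 on SG, 10.14, 9.98 and 10.32 on HF and 10.23, 10.70 and 10.15 on IFE. The SG arrays were again the lowest, while HF and IFE overlapped. Cldn4 had a difference of -0.93 in SG against IFE (adjusted p = 0.00734) and -0.71 in SG against HF (adjusted p = 0.0491), and the first of these passed the fold threshold in 6 of the alternative settings.

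Cldn12 was at 9.78, 9.81 and 9.99 on HF, 8.56, 8.87 and 8.93 on IFE and 7.93, 8.54 and 9.66 on SG. HF did not overlap with either compartment, but the SG arrays were spread, with SG replicate 3 highest. The difference of HF against IFE was 1.07 (adjusted p = 0.0602), and without SG replicate 3 it passed the threshold, as it did in 8 more of the alternative settings. That of SG against HF was -1.15 (adjusted p = 0.053), and it was called in 10 of the alternative settings. Cldn14, better known from the inner ear, was at 7.23, 7.46 and 7.13 on HF and at 6.82 or below on the other 6 arrays. Its difference was 0.74 in HF against IFE (adjusted p = 0.0235) and -0.75 in SG against HF (adjusted p = 0.028).

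The remaining 10 claudins did not pass the F test: Cldn2, Cldn3, Cldn6, Cldn7, Cldn9, Cldn11, Cldn13, Cldn15, Cldn16 and Cldn18. For Cldn7, found in many epithelia, the differences were 0.09 in SG against IFE (interval -0.42 to 0.60) and 0.32 in HF against IFE (-0.19 to 0.83). For Cldn3, the gene next to Cldn4, they were 0.40 (-0.05 to 0.85) and 0.48 (0.03 to 0.93). The upper bounds of these intervals stay under the fold threshold. One of the 4 Cldn7 probe sets was higher in HF than in IFE by 2.37, and the other 3 by 0.20 to 0.31. Cldn11, a claudin of myelin and testis, had 0.58 in SG against IFE (adjusted p = 0.0456) without passing the F test. Of the 18 claudins, 13 lay among the dimmer 50% of all genes, Cldn17, Cldn8 and Cldn10 included, and Cldn6, Cldn9 and Cldn13 were each read by 1 probe set. Without detection calls a dim value may be background, which can compress a difference. Whether a probe set of one claudin also reads a close relative is not known here, and differences between family members are uncertain to that extent.

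**Figure D3:**
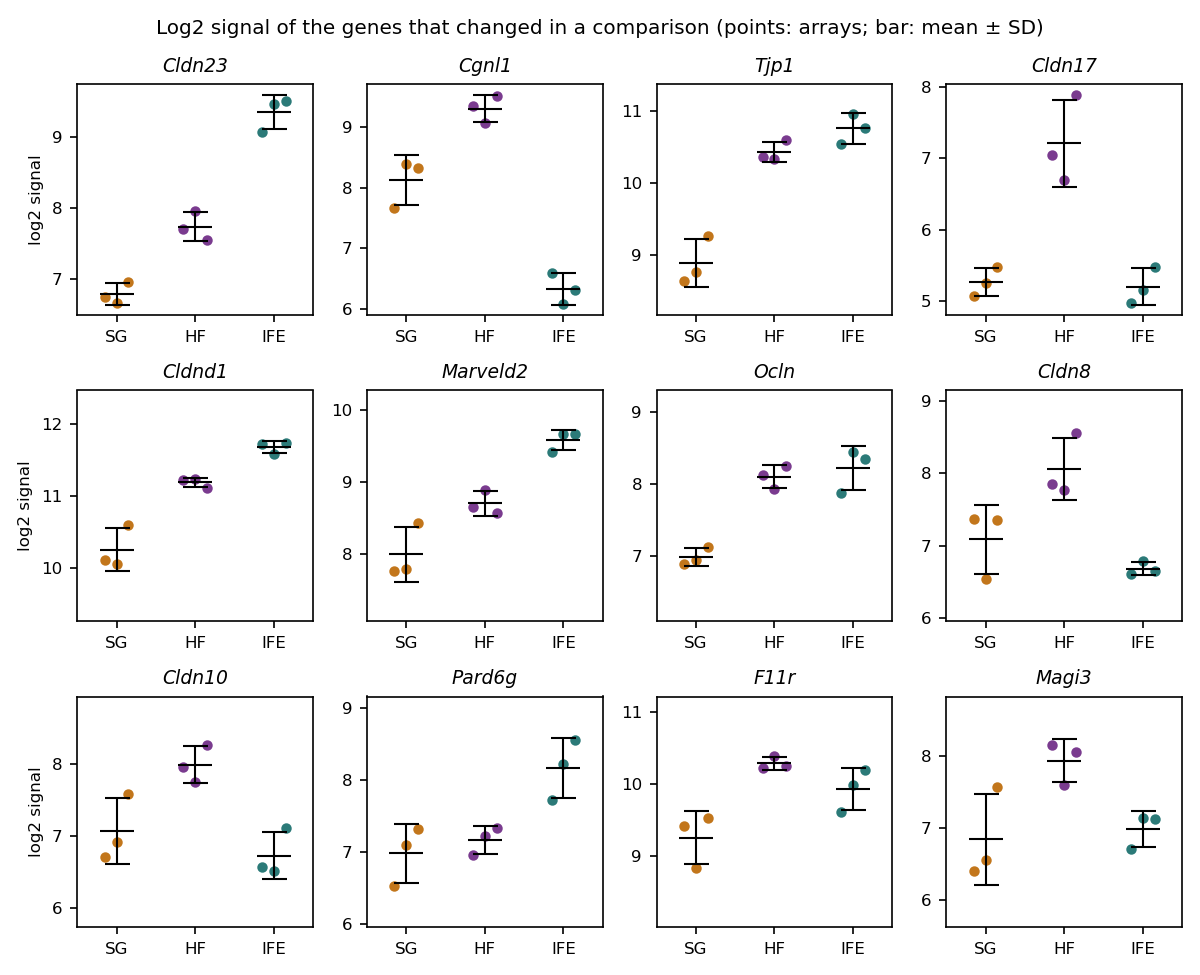
Log2 signal on each array (points) with mean ± SD (black) for the 12 genes that changed in at least 1 comparison, in the order of the F test; each panel has its own axis, which does not start at 0. Cldn17 sits at 6.70 or above on the HF arrays and at 5.47 or below on the other 6, and Tjp1 sits at 9.26 or below on SG and at 10.33 or above elsewhere.

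Of the 7 other transmembrane genes, SG had 2 below IFE and 2 below HF, against 6.96% and 3.3% of all genes. Between HF and IFE the largest difference, Marveld2 at -0.88, was under the fold threshold. Occludin, Ocln, stood at 6.89, 6.94 and 7.12 on SG, 8.12, 7.93 and 8.25 on HF and 7.87, 8.44 and 8.34 on IFE. SG lay apart from both, and HF and IFE overlapped. It was 2.35-fold lower in SG than in IFE (-1.23 ± 0.19, adjusted p = 0.000838) and 2.17-fold lower than in HF (adjusted p = 0.00349). The first call ended with quantile normalization or median centring, and over the settings tried the difference came as close to 0 as -0.98. The second ended with median centring, also at -0.98, and with the array letter as a block.

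Marveld2, which encodes tricellulin, the protein of the corners where 3 cells meet, is the neighbour of Ocln in RefSeq. It stood at 7.76, 7.79 and 8.44 on SG, 8.66, 8.89 and 8.57 on HF and 9.42, 9.66 and 9.66 on IFE. The compartments did not overlap, in the order IFE, HF, SG. It was 3.00-fold lower in SG than in IFE (-1.58 ± 0.21, adjusted p = 0.000306), and HF lay between them (-0.88 against IFE, adjusted p = 0.0159).

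F11r, the junctional adhesion molecule JAM-A, was at 9.42, 8.84 and 9.53 on SG, 10.23, 10.40 and 10.26 on HF and 9.61, 9.99 and 10.20 on IFE. It was 2.05-fold lower in SG than in HF (-1.03 ± 0.22, adjusted p = 0.0108). That call lay at the threshold and ended in 7 of 20 alternative settings, among them without SG replicate 2 or without HF replicate 2. Jam2, Jam3, Marveld3 and the apical Crumbs protein gene Crb3 passed no test, with differences from -0.32 to 0.44. Cldnd1, a more distant relative of the claudins, was 2.70-fold lower in SG than in IFE (-1.43 ± 0.18, adjusted p = 0.000238), at 10.11, 10.06 and 10.59 against 11.72, 11.59 and 11.74, with HF between them at 11.22, 11.23 and 11.11.

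Of the 7 plaque scaffolds, 5 passed the F test and 3 changed, against 24.5% and 13.9% of all genes. Tjp1, which encodes ZO-1, the scaffold that binds claudins and occludin to actin, stood at 8.64, 8.77 and 9.26 on SG, 10.36, 10.33 and 10.59 on HF and 10.54, 10.96 and 10.76 on IFE. Again SG lay apart while HF and IFE overlapped. Tjp1 was 3.64-fold lower in SG than in IFE (-1.86 ± 0.20, adjusted p = 9.53e-05) and 2.90-fold lower than in HF (-1.54 ± 0.20, adjusted p = 0.000869). Both calls held in 20 of 20 alternative settings apart from other fold thresholds. Tjp1 and Ocln were the 2 genes called lower in SG than in both other compartments, 5.13% of the 39 against 1.2% of all genes.

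Cgnl1, which encodes paracingulin, a scaffold of tight and adherens junctions, went the other way. It stood at 6.60, 6.08 and 6.31 on IFE, 7.66, 8.39 and 8.33 on SG and 9.34, 9.06 and 9.50 on HF. No compartment overlapped with another. It was 7.85-fold higher in HF than in IFE (2.97 ± 0.23, adjusted p = 1.6e-05), 3.48-fold higher in SG than in IFE (1.80 ± 0.23, adjusted p = 0.000266) and 2.26-fold lower in SG than in HF (-1.18 ± 0.23, adjusted p = 0.0074). The last call ended in 4 of 20 settings: without SG replicate 1 (-0.94, adjusted p = 0.0246), with the mean over probe sets (-0.78, adjusted p = 0.00754), with the array letter as a block (-0.92, adjusted p = 0.134) and with the brightest probe set, which turned its direction. Cgnl1 was the 1 gene of the 39 called lower in IFE than in both other compartments, as 0.979% of all genes were.

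Magi3, a scaffold with PDZ domains, was at 8.16, 7.60 and 8.05 on HF, 6.71, 7.14 and 7.13 on IFE and 6.40, 6.56 and 7.57 on SG. SG replicate 3 lay close to the HF arrays. Magi3 was 2.13-fold lower in SG than in HF (-1.09 ± 0.29, adjusted p = 0.0333), a call that ended in 9 of 19 settings, among them leaving out SG replicate 1, SG replicate 2, HF replicate 1 or HF replicate 3. Its relative Magi1 had -0.81 in that comparison (adjusted p = 0.0386). Tjp3, which encodes ZO-3, was at 7.91, 8.08 and 8.15 on IFE and at 7.75 or below on the other 6 arrays. It differed by -0.85 in SG and -0.67 in HF against IFE (adjusted p = 0.0069 and 0.0356), under the fold threshold. Mpdz and Amotl2 passed no test. The scaffolds that changed in no comparison had differences from -0.85 to 0.72.

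In the Par complex, which marks the apical side, 1 of 6 genes changed, against 13.9% of all genes. Pard6g was at 7.72, 8.22 and 8.56 on IFE, 6.53, 7.10 and 7.31 on SG and 6.96, 7.22 and 7.33 on HF. SG and HF overlapped and both lay below the IFE. It was 2.27-fold lower in SG than in IFE (-1.19 ± 0.25, adjusted p = 0.00588), a call that ended in 6 of 20 settings, among them without SG replicate 1 or IFE replicate 3. In HF against IFE the difference of -0.999 (adjusted p = 0.0225) missed the fold threshold by less than its SE. Prkci, the atypical protein kinase C of the complex, was at 9.29, 9.82 and 9.56 on SG, 10.13, 10.06 and 10.16 on HF and 10.34, 10.66 and 10.50 on IFE. The compartments did not overlap, and the difference was -0.95 in SG against IFE (adjusted p = 0.00298), under the fold threshold. Pard3, the scaffold of the complex, had -0.67 (adjusted p = 0.0387). Pard6a, Pard6b and Prkcz passed no test with the median over probe sets. The Par genes that changed in no comparison had differences from -0.95 to 0.41.

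Each gene value was the median of several probe sets, which are exon-level units of the array, from 1 for 3 claudins to 43 for Mpdz. For Tjp1, 31 of 32 probe sets were lower in SG than in IFE and 27 of them by at least 1 log2 unit. For Cgnl1, 20 of 20 were higher in HF than in IFE, by 0.50 to 4.37. For Cldn23, 5 of 5 were lower in SG, with 3 at -2.76 to -2.52 and the other 2 at -0.71 and -0.51. The size of a difference therefore depended on the probe sets used. With the brightest probe set alone, Cgnl1 was higher in HF than in IFE by 0.50 (adjusted p = 0.151) and in SG than in IFE by 0.71, and SG against HF turned to 0.20. Likewise Cldn23 was at -0.71 and -0.73 in SG and HF against IFE, Marveld2 at -0.55 and Cldnd1 at -0.74 in SG against IFE, and Cldn8 at 0.93 in HF against IFE, none of which met the fold threshold. The same setting added calls: Pard6b was lower in SG than in IFE (-1.92, adjusted p = 0.00232) and HF (-1.73, adjusted p = 0.00908), Cldn4 was lower in SG than in IFE (-1.76, adjusted p = 0.000503) and HF (-1.80, adjusted p = 0.00158), Cldn12 was lower in SG than in HF, and Cldn3 and Magi3 were higher in HF than in IFE.

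**Figure D4:**
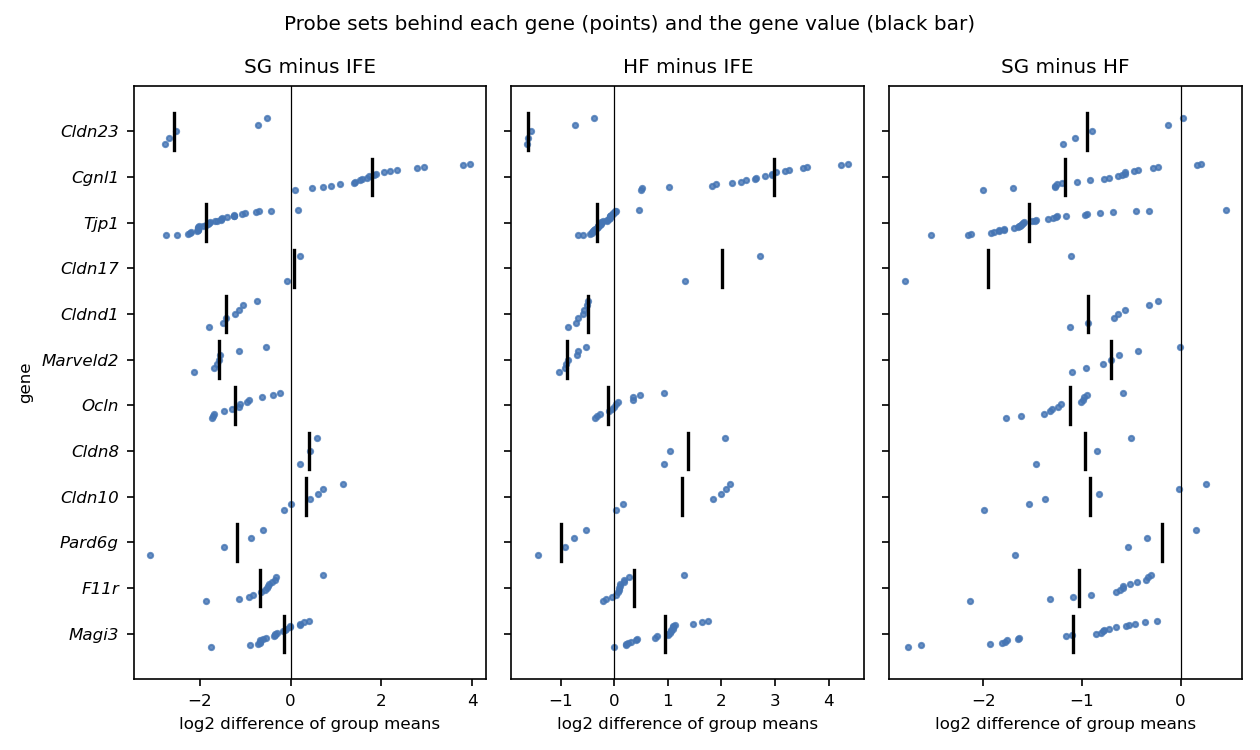
Log2 difference of group means for each probe set (points) of the 12 changed genes, with the gene value (black bar), in the 3 comparisons (panels). All but 1 of the 32 Tjp1 probe sets lie below 0 in SG against IFE, and the Cldn10 probe sets split into 4 near 2 and 2 near 0 in HF against IFE.

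Among the 39 genes, 5 pairs were neighbouring protein-coding genes in RefSeq. Cldn17 and Cldn8 were both higher in HF than in IFE, and Ocln and Marveld2 were both lower in SG than in IFE. Cldn1 and Cldn16, Cldn6 and Cldn9, and Cldn4 and Cldn3 were the others. Cldn4 and Cldn3 had differences of -0.93 and 0.40 in SG against IFE, and Cldn1 and Cldn16 -0.62 and 0.49.

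Other genes of the junction and of polarity were followed as lists. Of 21 further components measured, 1 was higher in SG than in IFE (background 2.54%) and 1 lower (background 6.96%). In HF against IFE 1 was higher (background 2.96%). The higher one was Clmp, an adhesion molecule of the coxsackie and adenovirus receptor family, at 3.03 ± 0.33 in SG against IFE (adjusted p = 0.000108), 1.41 in HF against IFE and 1.62 in SG against HF. The lower one was the actin nucleator Cobl (-1.43 ± 0.27, adjusted p = 0.00285). Of 22 further polarity genes, 2 fell in SG against IFE (background 6.96%), Dlg2 (-1.75) and the Rac activator Tiam1 (-1.18). Dlg2 was also lower in HF (-1.88), and the kinase gene Mark1 was higher in HF (1.15).

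In the list of 20 genes known to regulate claudins or their processing, none was called higher in SG against IFE by limma. At an unadjusted p under 0.05, 1 was higher. By the same calls 6 of the 20 fell, against 6.96% of all genes. They were the grainyhead-like factors Grhl3 (-2.45 ± 0.21, adjusted p = 1.64e-05) and Grhl1 (just past the fold threshold, adjusted p = 0.013), Klf4 (-1.50), Ehf (-1.77), Ovol1 (-1.39) and the kinase Wnk1 (-1.44). Grhl3 was lower in HF as well (-1.73 ± 0.21, adjusted p = 0.000211), as were Klf4 (-1.48) and Wnk1 (-1.47). The membrane protease gene St14 was higher in HF than in IFE (1.38 ± 0.30, adjusted p = 0.0104) and lower in SG than in HF (-1.64). Ehf (-1.27) and Ovol1 (-1.83) were also lower in SG than in HF. In SG against IFE the median difference was -0.50 over these 20 genes, -0.13 over the 21 components and -0.40 over the 22 polarity genes, against -0.06 over all genes.

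Other signals moved with the IFE beside Cldn23, which was called higher in IFE than in both other compartments, as 2.32% of all genes were. Immediate early genes are a class induced within minutes by many stimuli, dissection included. Among 13 of them, 10 fell in SG (background 6.96%) and 5 in HF (background 3.36%), each against IFE. Examples are Btg2 (-2.36 and -1.23) and Zfp36 (-2.44 and -1.75). Their list values were 0.43 to 1.25 on IFE, -0.41 to 0.12 on HF and -0.91 to -0.58 on SG. Of the 13 genes of differentiated IFE, 10 were lower in SG and 9 in HF, with the same backgrounds. In each 1 was higher (background 2.54% and 2.96%). Aloxe3, an epidermal lipoxygenase, was at -2.70 and -2.45. The part of handling or of the share of differentiated cells in these results was not tested.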

How the data were processed

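RNA from 9 pools of dissected tissue was amplified, biotin-labelled and measured on exon arrays. The authors deposited linear intensity values, 1 for each of 154736 probe sets on each array; the submitters' processing notes name RMA, Affymetrix Power Tools and mm9, without versions or roles. Array medians ran from 176 to 234, and no further scaling preceded log2. The 146964 probe sets with 1 symbol gave 14507 genes, each the median log2 of its probe sets, with older symbols updated through RefSeq. All 9 arrays entered a single limma fit (version 3.58.1, R 4.3.3) with a mean for each compartment and eBayes, with Benjamini-Hochberg adjustment across all genes. SE and 95% intervals come from that fit. Precision is limited by the number of arrays; the median SE of the 39 genes was 0.201. The code was tested on simulated data. Genes, lists and tests were chosen with earlier results of these data known. The naming rule gave every gene that changed its difference and array values, unchanged genes their ranges by group, and other lists up to 4 genes of smallest F p. Unchanged genes given with array values, and further genes of the lists, were singled out after their values were seen. Alternatives were scaling, dim genes, probe set summaries, eBayes settings, array weights, only the groups compared, blocks by replicate number or by the last letter of the array names, fold thresholds and leaving out arrays. Probe sets with several symbols or none were left out.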

Additional observations from a re-analysis of the deposited data

How the results depend on the processing

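The counts of the 39 genes that changed were 7, 5 and 6 in SG against IFE, HF against IFE and SG against HF, and 19 in the F test. Leaving out each array in turn gave 7 to 8, 5 to 6, 4 to 11 and 15 to 19. Log2 thresholds of 0.5 or 0 gave 14, 9 and 14, and a threshold of 2 gave 1, 2 and 0. Over all genes, where the counts were 1377, 916 and 741, a threshold of 0.5 gave 3154, 1750 and 1373, of 0 gave 3171, 1750 and 1373, and of 2 gave 226, 214 and 137. Without the dimmer 50% of genes, 19 of the 39 genes remained. HF against IFE then had 3, as Cldn17, Cldn8 and Cldn10 were left out and Cldn12 was added. With the brightest probe set SG against IFE had 4, of which 2 were among the 7, while the count over all genes rose from 1377 to 1714. Without SG replicate 3 and HF replicate 2, HF against IFE had 8 and SG against HF 10, with 1069 and 1047 over all genes. The F test had 11 with the letter block. Some letters occurred on only 1 array, which that block fits exactly, so fewer arrays then set the comparisons and the spread. Over all genes, the F test counted 3548, and 1360 with the letter as a block, 5890 with weighted arrays and 2305 after leaving out IFE replicate 2. SG against HF counted 741, and 392 with the letter block. HF against IFE counted 597 without the dimmer 50%, a setting that tests fewer genes, so this count and 916 do not share a base.

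Of 18 called differences under 19 or 20 settings each, other fold thresholds aside, 318 of 355 values kept their call, 36 lost it, and 1 turned, Cgnl1 in SG against HF, at 0.20 with the brightest probe set. Quantile normalization moved the median difference of all genes in SG against IFE from -0.06 to 0.16, and median centring to 0.18. Same-numbered arrays deviated together little (correlations -0.02 to 0.225, over 0.1 for 2 of 9 pairs), so the numbers were not taken to pair the arrays. With the replicate block the counts were 7, 6, 7 and 20. Cldn12 was added in HF against IFE and in SG against HF, and no call was lost in the 3 comparisons. The causes of these shifts were not tested. Without detection calls, signal over background is unknown, which limits what the dim claudins can show.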
